A study of Mus musculus with 6 samples.

Results

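Caspases are cysteine proteases that cut proteins after aspartate residues. The 16 probe sets described here belong to 7 mouse caspase genes and Cflar, and were taken by platform gene symbol from 38195 probe sets (8 of 18029 genes). Liver RNA was measured on Affymetrix arrays in mice with floxed RECS1 alleles (genotype RECS1-flox, the controls, n = 3) and in mice lacking RECS1 in hepatocytes (genotype RECS1-HKO, called HKO, n = 3). Tmbim1 is the current symbol of RECS1, and other proteins of its family are known to limit cell death. All 6 mice had the C57BL/6 background, were 16 weeks of age, and had been on a high-fat diet for the last 8 weeks. The labels name neither the promoter that drives Cre nor the substrain nor the sex. Whole liver was used, so RNA of hepatocytes and of the other liver cells was measured together, and fewer cells of a type cannot be told apart from less RNA per cell.

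Initiator caspases start apoptosis: Casp8 acts below death receptors such as Fas and the TNF receptor, Casp9 acts on the apoptosome after mitochondria release cytochrome c, and Casp2 is activated on the PIDDosome. Casp6 is counted among the executioners, which cut structural proteins. Casp1, Casp4 (the mouse caspase-11) and Casp12 are the inflammatory caspases, of which Casp1 matures interleukin-1 beta and Casp4 senses cytosolic lipopolysaccharide. Cflar encodes c-FLIP, a Casp8-like protein without protease activity that binds the Casp8 complex and limits or shapes its activation. In liver, hepatocytes are known to be sensitive to Fas and to depend on the mitochondrial branch for full apoptosis after Fas is engaged.

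Cflar and Casp8 are neighbours on chromosome 1, and Casp1, Casp4 and Casp12 form a cluster on chromosome 9. The reference transcription starts of Cflar and Casp8 lie 91.01 kb apart, and those of Casp1 and Casp12 46.96 kb apart. Promoter windows of the 250 bases before the start were found for all 8 genes (RefSeq, GRCm38.p6) and searched on both strands for the NF-kB motif, the interferon response motif with a spacer of 1 base, GAAANGAAA, the STAT motif TTCNNNGAA and the AP-1 motif TGANTCA. The windows of Casp8, Cflar and Casp4 are shown, because Casp8 was the member that changed, Cflar is the neighbour that binds its product, and Casp4 held the most motif matches. All 3 genes lie on the plus strand, sequences run 5′ to 3′, and capitals mark motif matches.
Casp8 promoter (chr1:58802252-58802501, plus strand): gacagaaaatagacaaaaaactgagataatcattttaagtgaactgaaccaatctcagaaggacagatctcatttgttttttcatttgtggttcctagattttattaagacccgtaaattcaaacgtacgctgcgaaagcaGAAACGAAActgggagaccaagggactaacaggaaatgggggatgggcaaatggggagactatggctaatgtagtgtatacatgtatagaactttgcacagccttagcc
Cflar promoter (chr1:58711241-58711490, plus strand): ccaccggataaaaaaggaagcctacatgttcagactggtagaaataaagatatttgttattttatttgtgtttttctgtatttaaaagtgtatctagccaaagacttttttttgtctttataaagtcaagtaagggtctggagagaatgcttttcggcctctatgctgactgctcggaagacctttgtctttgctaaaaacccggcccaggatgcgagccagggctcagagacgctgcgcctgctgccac
Casp4 promoter (chr9:5308599-5308848, plus strand): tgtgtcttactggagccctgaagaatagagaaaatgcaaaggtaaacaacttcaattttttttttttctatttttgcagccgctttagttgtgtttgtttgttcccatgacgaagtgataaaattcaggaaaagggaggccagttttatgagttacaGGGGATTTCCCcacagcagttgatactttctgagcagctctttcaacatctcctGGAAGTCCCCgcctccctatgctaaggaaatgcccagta
In the Casp8 window, capitals mark the only match, to the interferon response motif with a spacer of 1 base. Of 32851 promoter windows of the same length, 2.68% hold this form. The motifs were chosen after the promoters were seen, so the shares given here are no test. The Cflar window held no match to any of the 4 motifs, and neither did those of Casp1, Casp2, Casp6 and Casp9. In the Casp4 window, the 4 NF-kB matches (both strands counted, 3 of them overlapping) form 2 capital blocks, and 7.25% of all windows hold at least 1. The Casp12 window held 2 STAT matches, a motif in 7.02% of windows. A match describes the letters and is no evidence of binding, and the Casp8 table holds 1 of possibly several starts.

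Casp8 rose in HKO liver and was the only one of the 8 genes that passed the test. Its single probe set (1424552_at) read 7.96, 7.96 and 8.02 (deposited log2 intensity) in control mice 1, 2 and 3, and 9.22, 9.26 and 9.31 in HKO mice 1, 2 and 3. All 3 HKO values lay above all 3 control values, and the gap between the groups was far wider than the spread inside either. The means were 7.98 ± 0.03 in control and 9.26 ± 0.04 in HKO liver (SD, n = 3 each). The difference was a log2 fold change of 1.29 ± 0.07 (SE), or 2.44-fold, with a 95% confidence interval of 1.12 to 1.45 (limma across all probe sets, Benjamini-Hochberg adjusted p = 7.89e-05). By p-value this probe set ranked 22 of 38195, and by size of rise the gene ranked 55 of 18029.

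**Figure D1:**
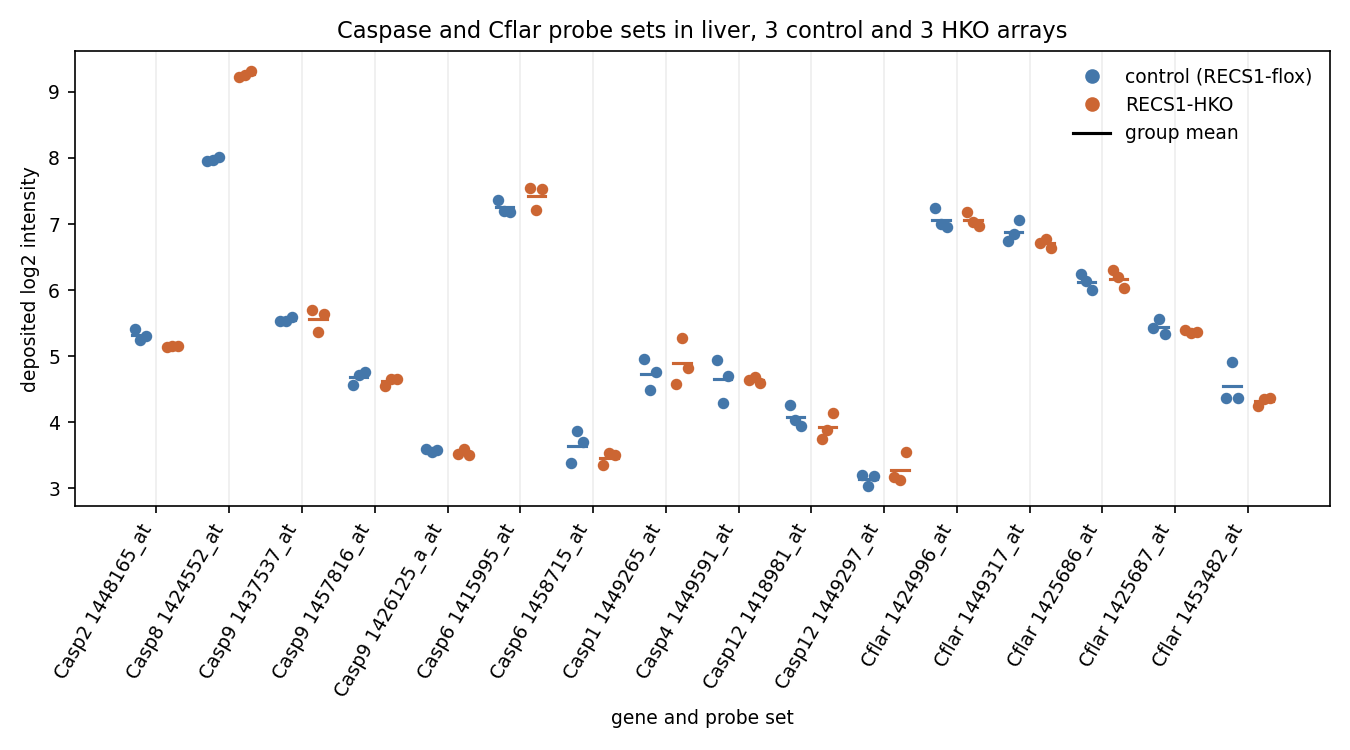
Deposited log2 intensity (vertical axis) of the 16 probe sets of the caspases and Cflar (horizontal axis) in each of 3 control (blue) and 3 HKO (orange) arrays, with short lines at the group means. The 3 HKO values of Casp8 lie between 9.22 and 9.31, above the control values of 7.96 to 8.02, while the groups of the other probe sets overlap except for Casp2, lower in HKO.

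Of the 16 probe sets, 1 rose, none fell and 15 did not pass at an adjusted p under 0.05, where 0.702% of all probe sets passed (0.367% higher and 0.335% lower). The groups did not overlap for Casp8 and Casp2 (2 of 16 probe sets), against 16.9% of all probe sets (7.8% higher and 9.15% lower). The other 15 probe sets had log2 fold changes between -0.23 and 0.18, a median of -0.04, and adjusted p-values of 0.438 or more, beside a median of -0.0035 over all probe sets. The lowest bound of their 95% intervals was -0.56 (a Cflar probe set) and the highest 0.56 (Casp1), and each single interval was narrower than this span. Of the 16, Casp8 had an unadjusted p under 0.05, against 11.8% of all probe sets. In the fit across genes by their brightest probe set, Casp2 did too (unadjusted p = 0.046, adjusted p = 0.373), which makes 2 of 8 members against 13% of all genes.

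**Figure D2:**
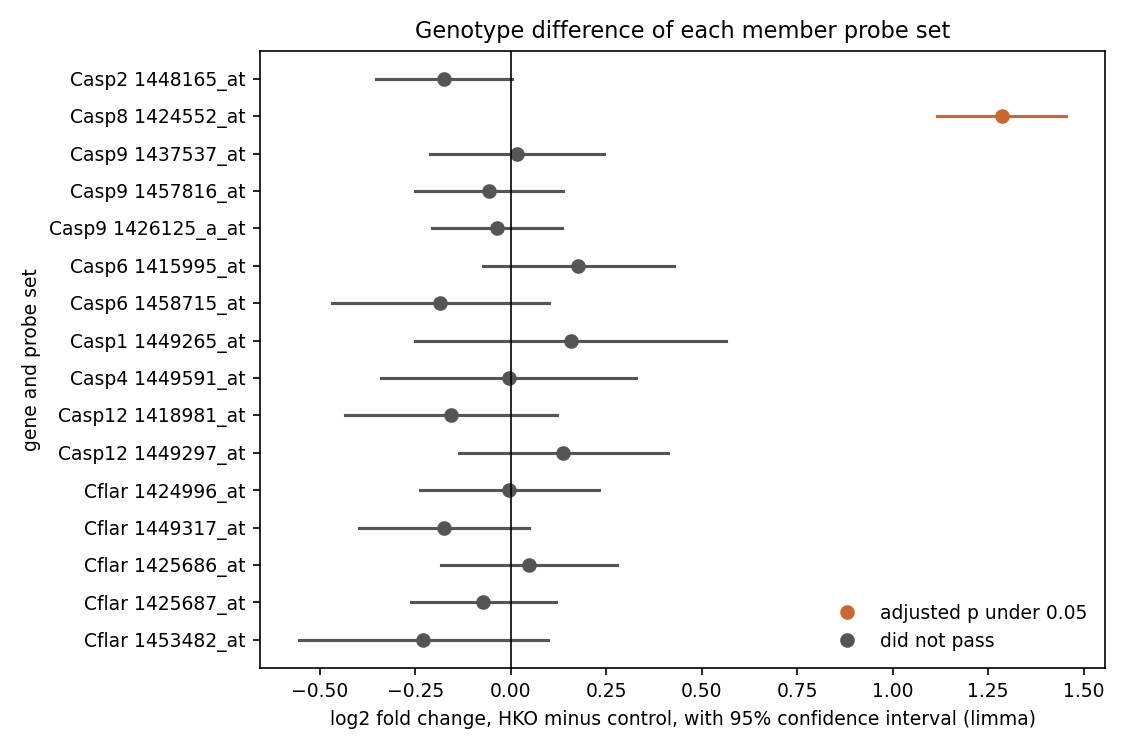
Log2 fold change, HKO minus control (horizontal axis), of each of the 16 probe sets (vertical axis), with its 95% confidence interval from limma. The interval of Casp8 runs from 1.12 to 1.45, and the intervals of the other 15 include 0.

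The other initiator caspases did not pass. Casp2 read 5.41, 5.25 and 5.31 in the control mice and 5.14, 5.15 and 5.16 in the HKO mice. Every HKO value was below every control value, and the HKO mice differed little among themselves. Its log2 fold change was -0.17 ± 0.08 (adjusted p = 0.438).
Casp9 has 3 probe sets. The brightest (1437537_at) read 5.53, 5.53 and 5.60 in control and 5.70, 5.37 and 5.64 in HKO liver. HKO mouse 2 was the lowest of the 6 and HKO mouse 1 the highest, so the groups overlapped, and the log2 fold change was 0.02 ± 0.10 (adjusted p = 0.969). The other Casp9 probe sets stood at -0.06 and -0.04.

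Casp6, an executioner caspase, did not pass. Its brighter probe set (1415995_at) read 7.37, 7.20 and 7.19 in control and 7.55, 7.21 and 7.53 in HKO liver. HKO mice 1 and 3 were above all controls and HKO mouse 2 lay among them. The log2 fold change was 0.18 ± 0.11 (adjusted p = 0.595), and the dimmer probe set (1458715_at), with both group means below the median probe set of 3.94, stood at -0.18 ± 0.12 (0.628). The 2 probe sets of Casp6 thus had opposite signs, and neither passed.

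None of the 3 inflammatory caspases passed, and 0 had an unadjusted p under 0.05 (limma). As a reference, 18 measured genes of other tissues had mean log2 levels between 0.89 and 5.39, with a median of 2.04. The means of the 3 inflammatory caspases were at most 4.82, above this median but inside this range, as was that of Casp2 (5.24). Whether these probe sets detected liver RNA was not tested, so a missing call does not show an unchanged level. Casp1 read 4.95, 4.49 and 4.77 in control and 4.59, 5.27 and 4.82 in HKO liver, with HKO mouse 2 the highest of all 6 and control 2 the lowest. Its log2 fold change was 0.16 ± 0.18 (adjusted p = 0.794), and -0.03 without HKO mouse 2.
Casp4 read 4.95, 4.30 and 4.70 in control and 4.64, 4.69 and 4.60 in HKO liver. The control mice spread more widely than the HKO mice, which all fell inside the control range, and the log2 fold change was -0.0055 ± 0.15 (0.994).
Casp12, best known from endoplasmic reticulum stress in rodents, had probe sets at -0.16 ± 0.12 (adjusted p = 0.686) and, for the dimmer one, 0.14 ± 0.12 (0.722). In the brighter probe set (1418981_at) the values were 4.26, 4.03 and 3.95 in control and 3.75, 3.89 and 4.14 in HKO liver, with HKO mouse 3 inside the control range.

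Cflar was measured by 5 probe sets, none of which passed. The brightest (1424996_at) read 7.25, 7.002 and 6.95 in control and 7.18, 7.04 and 6.97 in HKO liver, and each HKO value lay inside the control range. Its log2 fold change was -0.0038 ± 0.10 (adjusted p = 0.994; 95% interval -0.24 to 0.23). The other probe sets of Cflar stood at -0.18 (1449317_at), 0.05 (1425686_at), -0.07 (1425687_at) and -0.23 (1453482_at), with groups that overlapped in all 5. In the last of these, control mouse 2 at 4.91 stood above the other 5 mice, which lay between 4.24 and 4.37.

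The difference between Casp8 and each other member was tested within each array, as log2 of Casp8 minus log2 of the brightest probe set of the other gene. Against Cflar, this difference was 0.71, 0.96 and 1.06 in control and 2.04, 2.22 and 2.34 in HKO mice. It shifted by 1.29 between the genotypes, with the lowest HKO mouse 0.98 above the highest control mouse. Across the 7 pairs the shift lay between 1.11 (Casp6) and 1.46 (Casp2), and the groups did not overlap in any pair. These shifts largely restate the rise of Casp8, which was larger than the spread of any other member over the arrays, and are given as a description. An exact two-sided permutation test of 3 against 3 arrays gave p = 0.1 for each of the 7 pairs and 0.1 after adjustment over them, the smallest p that the design allows, so no pair could reach 0.05.

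The genes nearest to Casp8 on the chromosome were examined next. Of 20 measured genes that flank the 8 members, 2 on each side, none passed (limma across all genes, where 1.01% of 18029 genes passed), with log2 fold changes between -0.21 and 0.33. Of the 20, 5 had an unadjusted p under 0.05, against 13% of all genes, and 8 had groups that did not overlap, against 18.7%. Beyond Casp8, Trak2, an adaptor of mitochondrial transport, stood at 0.33 ± 0.11 (adjusted p = 0.265; -0.03 by the median over its probe sets), and Stradb, a pseudokinase, at 0.24 ± 0.07 (0.226). Both had all HKO values above all control values, as 8.58% of genes did. On the other side of Casp8 and Cflar, Flacc1 stood at -0.10 (0.709) and the respiratory chain subunit Ndufb3 at -0.02 (0.957). The shift of Casp8 was thus several times that of any flanking gene.

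Casp8 was compared with genes outside the members whose mean lay above that of the median gene, leaving out provisional symbols. Most alike over the 6 arrays, each centred on its own control mean, were Wdfy1, Jun, Tnf, Nnt and Slc16a7. Their root mean square differences from Casp8 were 0.10, 0.11, 0.14, 0.16 and 0.16 log2 units, against 0.80 (Casp6) to 1.03 (Casp2) for the other members. All 5 rose, by 1.25 (Wdfy1; 0.63 by the median over its probe sets), 1.33 (Jun, a subunit of AP-1), 1.32 (Tnf), 1.43 (Nnt, the mitochondrial transhydrogenase) and 1.28 (Slc16a7, a monocarboxylate transporter). This measure takes in the genotype difference and is a description over 2 groups. Of the 5 probe sets of Wdfy1, those beyond the brightest stood at log2 fold changes of 1.66, 0.07, 0.92 and -0.77. Part of Nnt is deleted in the C57BL/6J substrain, and Wdfy1 RNA is also known to differ between C57BL/6 substrains. The labels give no substrain, and the part of substrain in the Casp8 difference was not tested.

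**Figure D3:**
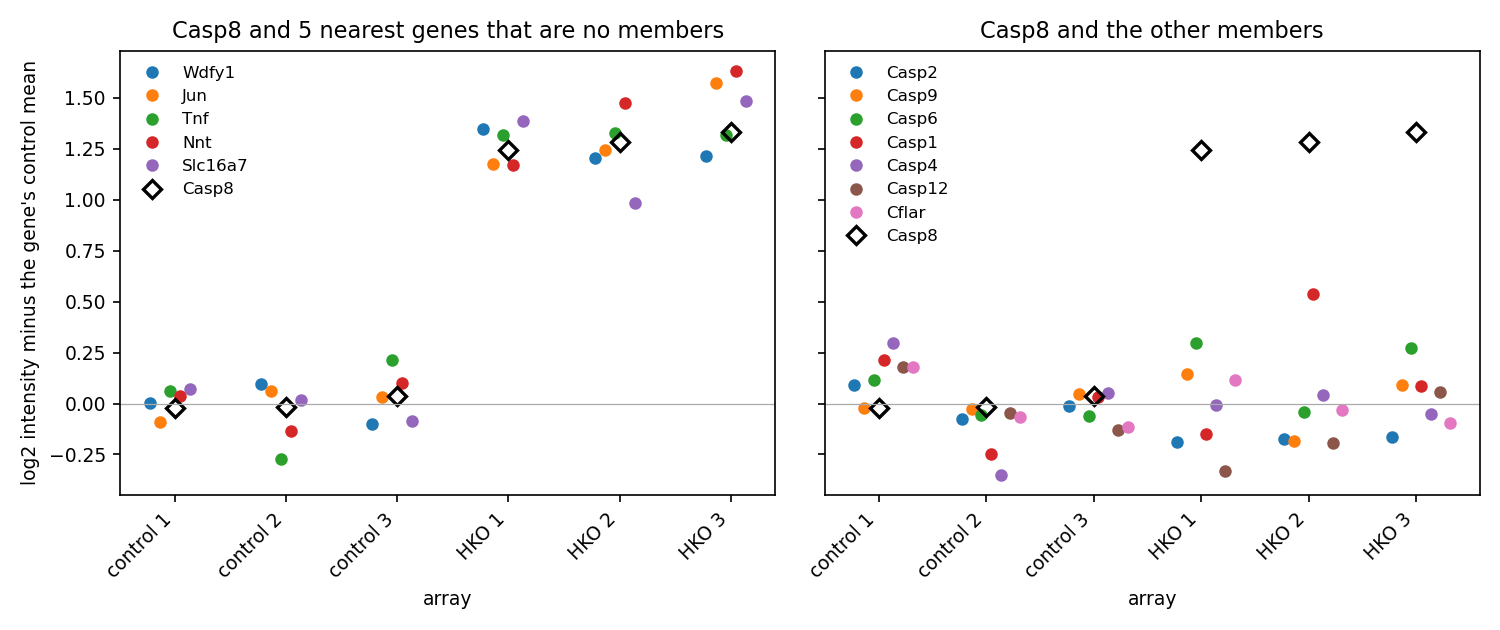
Log2 intensity minus each gene's own control mean (vertical axis) on each of the 6 arrays (horizontal axis), for Casp8 (diamonds) with the 5 most alike of the genes compared (left) and with the 7 other members (right). On the HKO arrays the 5 alike genes lie close to Casp8, with root mean square differences of 0.10 to 0.16, while the other members stay near their control means.

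Genes that act with the caspases were read from lists, with the brightest probe set of each gene and the fit across all genes (0.56% of genes higher and 0.449% lower, median log2 fold change -0.0041). Of 24 measured genes of death receptor signalling, Tnf, the ligand of the TNF receptors, rose and 23 did not pass, with a list median of -0.02. Tnf read 4.10, 3.77 and 4.25 in control and 5.35, 5.37 and 5.35 in HKO liver, a log2 fold change of 1.32 ± 0.12 (adjusted p = 0.00206). The HKO values lay close together and above every control value. Rnf31, the catalytic subunit of the linear ubiquitin ligase, stood at -0.37 ± 0.09 (0.116) and the adaptor Tradd at -0.25 ± 0.07 (0.195). Named for their role after their values were seen, Fadd, the adaptor that binds Casp8, stood at 0.08 (0.777), and the death receptors upstream of it, Fas and Tnfrsf1a, at -0.02 (0.961) and -0.01 (0.969).

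Of 6 necroptosis genes none passed (limma, here and for the lists that follow), and 1 had an unadjusted p under 0.05, against 13% of all genes. Mlkl, the pore-forming effector of necroptosis, stood at 0.33 ± 0.12 (adjusted p = 0.314), Spata2 at 0.08 (0.821) and Pgam5 at 0.04 (0.878), with a list median of 0.03. Of 18 measured BCL2 family genes, which govern the mitochondrial branch, none passed, with a median of -0.05. Of the 18, 4 had an unadjusted p under 0.05, against 13% of all genes. Bok, a pore-forming member, stood at -0.50 ± 0.09 (0.0576) with all HKO values below all control values, as for 10.1% of genes. It passed in 4 of 14 alternatives (adjusted p between 0.027 and 0.0484), but in 0 of the 6 fits without 1 mouse. The highest adjusted p for Bok over the 14 was 0.182 (limma). Bmf, a BH3-only protein, stood at -0.44 ± 0.13 (0.194; -0.17 by the median over its probe sets) and Bcl2 at 0.19 ± 0.08 (0.353).

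Of 16 measured apoptosome genes and inhibitors of apoptosis none passed, with a median of -0.04. Of the 16, 3 had an unadjusted p under 0.05, against 13% of all genes. The giant inhibitor Birc6 stood at 0.39 ± 0.16 (adjusted p = 0.347; 0.021 by the median over its probe sets), Naip2 at 0.31 ± 0.12 (0.306) and Birc5 at 0.33 ± 0.13 (0.349). Named by role after their values were seen, Apaf1, which forms the apoptosome with Casp9, stood at -0.04 (0.894), and Xiap, an inhibitor of Casp9, at -0.16 (0.606). The list named for the PIDDosome held Pidd1 and Cradd, which build it with Casp2, and also the TNF receptor adaptor Madd and the apoptosis repressor Nol3, which are not part of it. Of these 4 genes none passed, also at an unadjusted p under 0.05 (0 genes), with Madd at 0.16 (0.598), Cradd at 0.15 (0.620) and Pidd1 at -0.09 (0.796) and a list median of 0.08. Of 17 caspase substrates and effectors none passed and 2 had an unadjusted p under 0.05, against 13% of all genes. The actin-severing protein Gsn stood at -0.52 ± 0.18 (0.279), Gas2 at 0.45 ± 0.18 (0.340) and Spin1 at -0.16 (0.458), with a list median of -0.01. Casp14, the epidermal caspase outside the 8 genes, stood at -0.06 (0.822).

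The inflammasome and pyroptosis list held changes in both directions. Of 22 measured genes 1 rose, 1 fell and 20 did not pass, with a median of 0.02, and 8 had an unadjusted p under 0.05, against 13% of all genes. Il1b, the substrate of Casp1, rose by 2.19 ± 0.11 (adjusted p = 3.69e-05), from 4.71, 4.72 and 4.55 in control to 7.04, 6.84 and 6.67 in HKO liver. Gsdmd, the pore-forming protein cut by Casp1 and Casp4, fell by 0.56 ± 0.10 (adjusted p = 0.0481), from 7.10, 6.87 and 6.88 in control to 6.34, 6.54 and 6.29 in HKO liver. All HKO values of Gsdmd lay below all control values. Its call was near the threshold: the adjusted p was 0.0546 over all probe sets, and in the 6 fits without 1 mouse each Gsdmd passed in 1. Nlrp12 stood at -0.58 ± 0.13 (0.0915; it passed in 2 of 14 alternatives), and Pycard, the adaptor that recruits Casp1, at -0.03 (0.959; chosen by role after its value was seen).

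**Figure D4:**
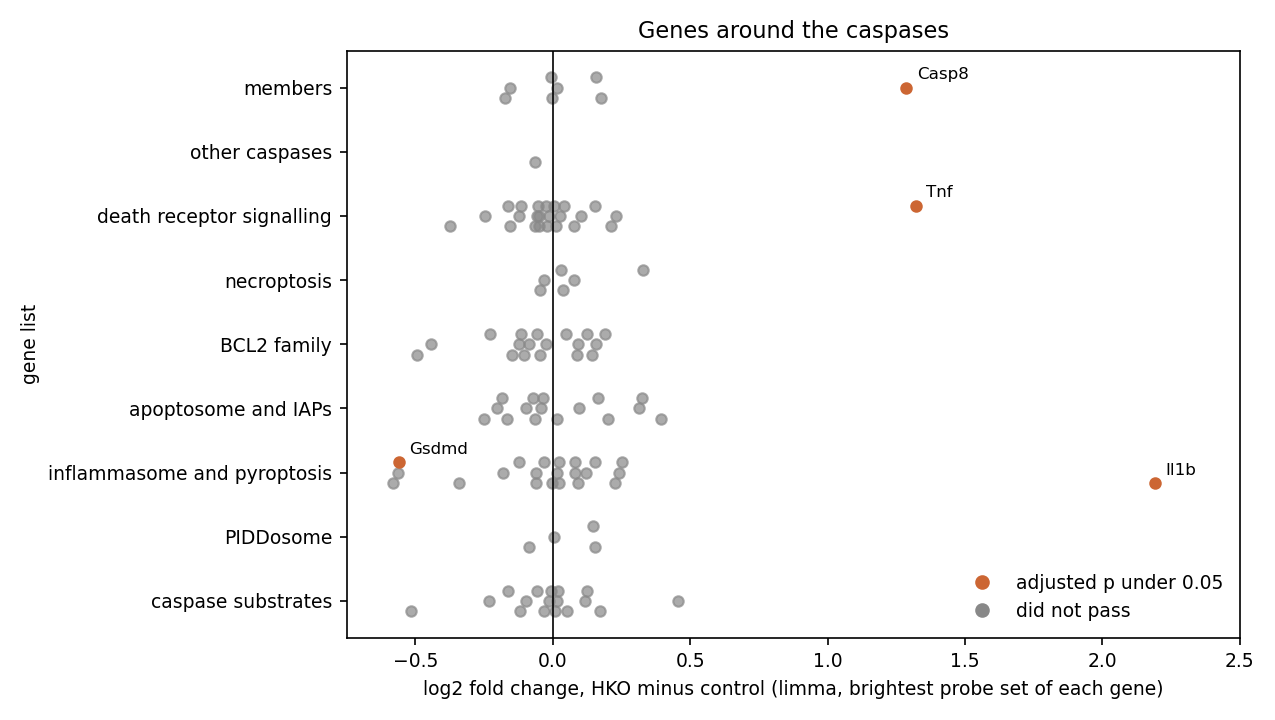
Log2 fold change, HKO minus control (horizontal axis), of every measured gene among the members and in each pathway list (vertical axis; marker lists and Tmbim1 are not drawn), by the brightest probe set, with genes at an adjusted p under 0.05 in orange. Casp8, Tnf, Il1b and Gsdmd are the 4 genes drawn that are past the threshold, with 1.29, 1.32, 2.19 and -0.56.

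Markers of the cells that could carry Casp8 RNA were measured beside it. None of 19 macrophage and Kupffer cell, 11 neutrophil, 16 lymphocyte, 10 endothelial, 11 stellate and cholangiocyte or 16 hepatocyte markers passed (limma). An unadjusted p under 0.05 was found for 2 macrophage, 1 stellate and cholangiocyte and 3 hepatocyte markers, and for 0 of the neutrophil, lymphocyte and endothelial markers, against 13% of all genes. The mean log2 level of the macrophage list lay between 6.76 and 7.31 in control and between 6.90 and 7.14 in HKO mice, that of the neutrophil list between 4.08 and 4.58 and between 3.95 and 4.19, and that of the lymphocyte list between 3.77 and 4.07 and between 3.81 and 3.95. The ranges overlapped between genotypes for these lists, as they did for hepatocyte markers (11.39 to 11.54 and 11.35 to 11.58), endothelial markers (6.40 to 6.61 and 6.39 to 6.64) and stellate and cholangiocyte markers (5.20 to 5.27 and 4.99 to 5.41). The median gene of the neutrophil list (4.12) and of the lymphocyte list (3.67) lay inside the range of the genes of other tissues (0.89 to 5.39). Whether these markers were detected was not tested, so overlap does not show unchanged numbers of these cells. The markers with the lowest p were Cd163 (-0.48, adjusted p = 0.05005) and Ccr2 (-0.36, 0.188) for macrophages, Mmp8 (-0.20) and S100a9 (-0.66) for neutrophils, Zap70 (0.17) and Cd4 (-0.20) for lymphocytes, Clec4g (-0.19) and Lyve1 (0.44) for endothelium, Sox9 (-0.66) and Krt7 (-0.22) for stellate cells and cholangiocytes, and G6pc (0.36) and Fgb (-0.20) for hepatocytes. Cd163 passed in 6 of 14 alternatives, but in 0 of the 6 fits without 1 mouse, with an adjusted p of up to 0.175 over the 14 (limma). Sox9 passed in 1 of 13 and G6pc in 1 of 14. S100a9 stood at -0.11 without control mouse 1, and Lyve1 at 0.10 without HKO mouse 3. The lists ran in both directions: 9 of the 19 macrophage markers had a log2 fold change above 0, up to 1.03 for Marco, a scavenger receptor, and 4 of the 11 stellate and cholangiocyte markers, up to 0.43 for Col3a1, a fibrillar collagen. Each of these 2 maxima rested mainly on 1 mouse. Marco (adjusted p = 0.607, limma) read 6.34, 4.94 and 4.79 in control and 5.98, 8.11 and 5.07 in HKO liver. Col3a1 (0.647) read 8.21, 7.80 and 7.82 in control and 8.22, 7.68 and 9.20 in HKO liver.

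Array medians lay between 3.92 and 3.95, and correlations between arrays over all genes were 0.9948 to 0.9964 within a genotype and 0.991 to 0.994 across genotypes. The first principal component separated the genotypes and held 45.1% of the variance. Tmbim1, the targeted gene, fell by 0.52 ± 0.08 (adjusted p = 0.026), with all HKO values below all control values, and did not pass without any 1 mouse (0.065 to 0.0967). The labels call the mice of a genotype biological samples, and 3 per group limit the precision of every value given.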

How the data were processed

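RNA of 6 livers (400 ng each) was hybridised to Affymetrix arrays. The authors deposited log2 intensities. RMA and limma are the tools listed in the submitters' processing notes, with versions, filters and genome build not given in the sources used here. RMA equalises the distributions of the arrays, which hides any global shift, and it shrinks dim differences. The lowest deposited values are lower than RMA usually gives, and its background settings are unknown. Of 38208 probe sets 13 controls were left out, 34325 have 1 gene symbol, 62 several and 3808 none in the platform annotation. HKO was compared with control by limma 3.58.1 in R 4.3.3 (lmFit, eBayes, two-sided, genotype as the only term, no block) over all 38195 probe sets, used for the members, and over 18029 genes by their brightest probe set, used for other genes, each with Benjamini-Hochberg adjustment and a threshold of 0.05. Gene-level values carry the standard errors of that fit. Lists were described by counts and medians. Named genes were the members, the 3 lowest p-values and all calls of each pathway list, the 2 lowest p-values of each marker list, the 5 genes most like Casp8 and 2 flanking genes a side, those away from Casp8 and Cflar given as a range; Fadd, Fas, Tnfrsf1a, Apaf1, Xiap, Pycard, Marco and Col3a1 were added after their values were seen. The members, lists and tests were chosen with earlier results of these data known, and the motifs after the promoters were seen; a wider-spaced form of the interferon response motif was also searched and is not reported here. Alternatives were other normalizations, probe set choices, variance models, array weights, a dim filter, a replicate block and leaving out each mouse. Only the limma fit across genes was tried on simulated data. No 2 arrays held identical values.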

Additional observations from a re-analysis of the deposited data

How the results depend on the processing

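Casp8 stayed past the threshold in all 15 refits of its gene value, with log2 fold changes of 1.264 to 1.307 without 1 mouse (adjusted p 0.000638 to 0.00107) and 1.286 to 1.287 in the other 9 (4.39e-06 to 0.00161). No other member passed in any of its refits. The cause of the changes listed here was not tested. Counts of calls were 65 and 344 genes, and 83 and 468 probe sets, at adjusted p under 0.01 and 0.1, and 78 to 161 genes and 87 to 197 probe sets without 1 mouse. Deviations of same-numbered mice from their group means correlated at -0.094, 0.069 and 0.112. The labels do not say whether the numbers pair mice, and these correlations cannot settle it. With a replicate block in limma, 125 genes passed, against 182 without it. Tmbim1 then stood at -0.52 (adjusted p = 0.0828) and Gsdmd at -0.56 (0.1), and of the members none changed its call. Tmbim1 lay between -0.554 and -0.475 without 1 mouse. With each gene taken as the median over its probe sets, the sign turned for Casp9 (-0.0572), Casp6 (-0.0036), Cflar (0.0478), Casp14 (0.000995), Bcl2 (-0.0217), Madd (-0.104), Ccr2 (0.116), Flacc1 (0.082) and Trak2 (-0.0338), none of which passed. With array weights it turned for Casp4 (0.0423; 0.0334 over all probe sets) and Cflar (0.00984; 0.00489 over all probe sets). Without 1 mouse, ranges that included both signs were those of Casp9 (-0.0475 to 0.116), Casp1 (-0.0323 to 0.311), Casp4 (-0.18 to 0.143), Cflar (-0.0634 to 0.0862, and -0.0173 to 0.122 for 1425686_at), Casp14 (-0.105 to 0.00239), Spata2 (-0.0202 to 0.192), Pgam5 (-0.0178 to 0.0724), Pidd1 (-0.2003 to 0.00662), Ndufb3 (-0.0779 to 0.0301), Fas (-0.072 to 0.0704), Tnfrsf1a (-0.0647 to 0.0278), Apaf1 (-0.102 to 0.0186) and Pycard (-0.221 to 0.118). With 3 mice a group, dim probe sets and small differences limit what could be seen.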

Other observations

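Casp8 and Tmbim1 lie on the same chromosome, and the genes between them were counted after the values were seen. Of 79 measured genes between the pair, none passed the test (limma, adjusted over all genes), 13 had an unadjusted p under 0.05 (13% of all genes did), and 18 had groups that did not overlap (18.7% of all genes). Their log2 fold changes lay between -0.59 and 0.66, with a median size of 0.08. On the whole of chromosome 1, 13 of 1054 genes passed (1.23%, against 1.01% of all genes). These 13 include Casp8 and Tmbim1, the pair that prompted the count. None of the others lies between the pair, and how near they lie to Casp8 or Tmbim1 was not examined.

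The promoter windows of Casp8 and Cflar hold 5 and 7 CpG dinucleotides and those of Casp9 and Casp2 hold 25 and 17, against a median of 6 over all promoter windows. Those of Casp6, Casp4, Casp1 and Casp12 hold 11, 3, 1 and 1.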
